A study of Mus musculus with 3 samples.

Results

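The genes described here encode the NF-kB transcription factor subunits (Nfkb1, Nfkb2, Rel, Rela and Relb) and the proteins that hold the factor back or shape its response (Nfkbia, Nfkbie, Nfkbiz, Tnfaip3 and Bcl3). They were chosen by name, 10 of 21938 protein-coding genes, and all 10 were found in the annotation. Chromatin accessibility at each gene body and 20 kb on either side was read from DNase-seq of natural killer cells, innate lymphocytes with cytotoxic granules. DNase I cuts DNA that nucleosomes leave exposed, so a peak is a stretch with many cuts. A footprint is a short stretch with few cuts within exposed DNA, and not every deposited footprint lay in a peak. A footprint does not name the protein that lies there. The study holds 1 group of 3 libraries, labelled as biological replicates, of primary natural killer cells from adult male B6CASTF1/J mice at 2 months of age, with no treatment named. The donor label is shared by all 3 and separate animals are not mentioned, which means that the spread between replicates may be only technical. With 1 group there is no comparison between conditions and no test, and the values below are descriptions.

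NF-kB acts as dimers of Rel-domain proteins. Rela, Rel and Relb carry activation domains, while Nfkb1 and Nfkb2 encode precursors that are processed into DNA-binding partners without such a domain. In resting cells the dimers are held by inhibitor proteins of the IkB family, and the IkB kinase complex releases them by marking the inhibitor for destruction. Nfkbia and Nfkbie encode classical cytoplasmic inhibitors, Nfkbiz and Bcl3 encode atypical nuclear members of that family, and Tnfaip3 encodes a ubiquitin-editing enzyme that stops the signal upstream of the kinase. Several of these genes are themselves NF-kB targets, which gives the pathway negative feedback. In natural killer cells the pathway lies downstream of activating receptors and of cytokines such as interleukin 18.

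In 9 of the 10 genes a promoter region with a peak in all 3 libraries held a match to the kappa B consensus. This consensus describes the DNA element that NF-kB dimers bind. Of all 11487 genes with such a region, 17.8% had a match there. Both values count a match anywhere in any such region and were not adjusted for the number or width of a gene's regions. In the middle 150 bp of the strongest promoter region alone, 6 of the 10 had a match, against 6.71% of all promoter regions. A promoter was taken as 500 bp on either side of any annotated start, and a match is a description of letters, not a site of binding. For each of the 9 genes 1 match is shown with 35 bp on each side, read in the direction of the gene, to show what the shared element looks like. The capitals mark the match, or 2 matches that overlap by all but 1 base in Nfkb2 and Rel. The sequences are those of the RefSeq mouse reference GRCm38.p6, the same build as mm10, and not of the CAST allele that B6CASTF1/J mice also carry. They lie at Nfkb1 at chr3:135691472-135691551 (minus strand), Nfkb2 at chr19:46304663-46304743 (plus strand), Rel at chr11:23771016-23771096 (minus strand), Relb at chr7:19629418-19629497 (minus strand), Nfkbia at chr12:55492632-55492711 (minus strand), Nfkbie at chr17:45555559-45555638 (plus strand), Nfkbiz at chr16:55838825-55838904 (minus strand), Tnfaip3 at chr10:19015378-19015457 (minus strand) and Bcl3 at chr7:19822709-19822788 (minus strand).
Nfkb1: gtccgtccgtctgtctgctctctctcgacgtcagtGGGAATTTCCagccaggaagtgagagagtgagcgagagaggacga
Nfkb2: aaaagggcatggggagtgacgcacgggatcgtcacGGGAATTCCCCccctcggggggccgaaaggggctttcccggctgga
Rel: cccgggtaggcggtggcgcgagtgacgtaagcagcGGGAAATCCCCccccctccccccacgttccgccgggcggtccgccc
Relb: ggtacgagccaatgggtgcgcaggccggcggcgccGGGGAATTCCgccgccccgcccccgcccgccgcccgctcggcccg
Nfkbia: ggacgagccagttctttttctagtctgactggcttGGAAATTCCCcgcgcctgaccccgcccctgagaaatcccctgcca
Nfkbie: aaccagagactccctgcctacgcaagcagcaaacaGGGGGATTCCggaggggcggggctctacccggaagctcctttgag
Nfkbiz: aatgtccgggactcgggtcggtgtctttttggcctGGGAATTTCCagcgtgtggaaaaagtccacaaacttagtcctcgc
Tnfaip3: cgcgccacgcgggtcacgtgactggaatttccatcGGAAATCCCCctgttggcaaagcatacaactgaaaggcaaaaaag
Bcl3: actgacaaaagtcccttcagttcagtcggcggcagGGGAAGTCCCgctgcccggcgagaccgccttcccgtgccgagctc

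Several genes shared the same 10 letters. GGGAATTTCC stood at position 35 of Nfkb1, at position 34 of Nfkbiz and, on the other strand, at position -25 of Nfkbia. Positions are in bp from the 5′ end of the gene record to the middle of the match, and negative ones lie upstream. GGGGATTTCC was shared by Rel (position -86) and Tnfaip3 (position 239), and GGGGAATTCC by Relb (position -20) and Nfkb2 (position 384). Rela was the gene with no match in a promoter region that had a peak in all 3 libraries. It had a match, GGGAGATTCC on the other strand, at position 420, in a promoter region with a peak in replicate 1 alone. None of the bases of that match lay in a footprint. That region directly follows the Rela promoter region found in all libraries, and it held 3, 6 and 6 footprints in replicates 1, 2 and 3. It overlapped intervals at a false discovery rate of 0.05 or less in all 3 libraries, so the exception of Rela depends on the peak calls. The middle 100 bp of its promoter region, chr19:5637411-5637510 (plus strand), are shown for contrast, with the GC box GGGCGG, read on either strand, in capitals.
Rela: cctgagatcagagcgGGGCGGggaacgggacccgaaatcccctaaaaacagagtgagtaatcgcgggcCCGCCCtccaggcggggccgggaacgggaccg

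All 10 genes had a promoter peak in every library, against 52.5% of all protein-coding genes. To compare libraries that differ in their number of peaks, the signal of each gene's strongest promoter peak was given as its percentile among all peaks of that library. Over the 10 genes the median of these percentiles, each a mean of 3 libraries, was 94.5, and it was 89.4 over the 11507 genes open in all 3 libraries. In 5 genes, Nfkb2, Relb, Nfkbia, Nfkbie and Tnfaip3, the promoter reached percentile 90 or more in every library, against 18.2% of all genes. That limit was chosen after the values were seen. Replicate 1, which has the fewest peaks, decided it: without replicate 1 the count was 9 genes, against 29.2% of all genes. With the stricter of the deposited peak lists, 9 of the 10 promoters were open in every library, and Bcl3 was the exception.

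Among the inhibitors and enzymes that switch the pathway off, Nfkbie and Tnfaip3 had the strongest promoters of the 10. The Nfkbie promoter region, chr17:45555541-45555740, had signals of 11.4, 26.9 and 33.4 in replicates 1, 2 and 3. These stood at percentiles 99.5, 99.7 and 99.9 (mean 99.7 ± 0.211, SD, n = 3). Fewer than 1 peak in 100 was stronger in any library. Tnfaip3, at chr10:19015341-19015600, had signals of 11.1, 23.2 and 25.7 and stood at 99.4 ± 0.0973. Nfkbia has a pair of adjoining promoter regions, at its start and at 646 bp into the gene, and their signals were close in each library, 6.42 and 5.53 in replicate 1, 14.9 and 15.0 in replicate 2, and 18.1 and 16.0 in replicate 3. Its strongest peaks stood at 96.6 ± 2.05.

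Of the 10 genes, the atypical nuclear inhibitors Nfkbiz and Bcl3 had lower and more variable promoters than Nfkbie, Tnfaip3 and Nfkbia. Nfkbiz stood at 88.9 ± 6.51, and its start region (chr16:55838621-55838980) had signals of 2.09, 4.87 and 10.5 in replicates 1, 2 and 3. A second region, at an annotated internal start 16.7 kb into the gene, had 3.08, 5.93 and 8.60. The internal region was the stronger in replicates 1 and 2 and the start region in replicate 3. Bcl3 was lowest of the 10, at 77.4 ± 19.8, with promoter signals of 1.19, 4.87 and 5.81. Replicate 1 set that spread, with the Bcl3 promoter at percentile 54.5, against 88.4 and 89.25 in replicates 2 and 3.

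Among the subunits, the genes of the alternative arm of the pathway, Nfkb2 and Relb, had the strongest promoters. Nfkb2 stood at 99.0 ± 0.507 (SD, n = 3), with signals of 9.50, 20.9 and 25.3 at chr19:46304481-46304820. Relb stood at 98.3 ± 1.03, and its strongest region, chr7:19628501-19629020, was not at the start but 687 bp into the gene, with signals of 8.06, 19.6 and 21.5. The region at the Relb start had 4.51, 12.8 and 15.1. The subunits of the classical arm were lower: Rel at 92.4 ± 2.20, Rela at 89.9 ± 4.09 and Nfkb1 at 87.9 ± 9.06. In signal, Rel had 4.84, 8.46 and 9.51, Rela had 3.73, 6.43 and 8.89, and Nfkb1 had 2.50, 7.42 and 9.57 in replicates 1, 2 and 3. In the order of the 10 means every gene stood above the next in all 3 libraries, except that Rela and Nfkbiz, and Nfkbiz and Nfkb1, changed places in 1 library each.

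**Figure D1:**
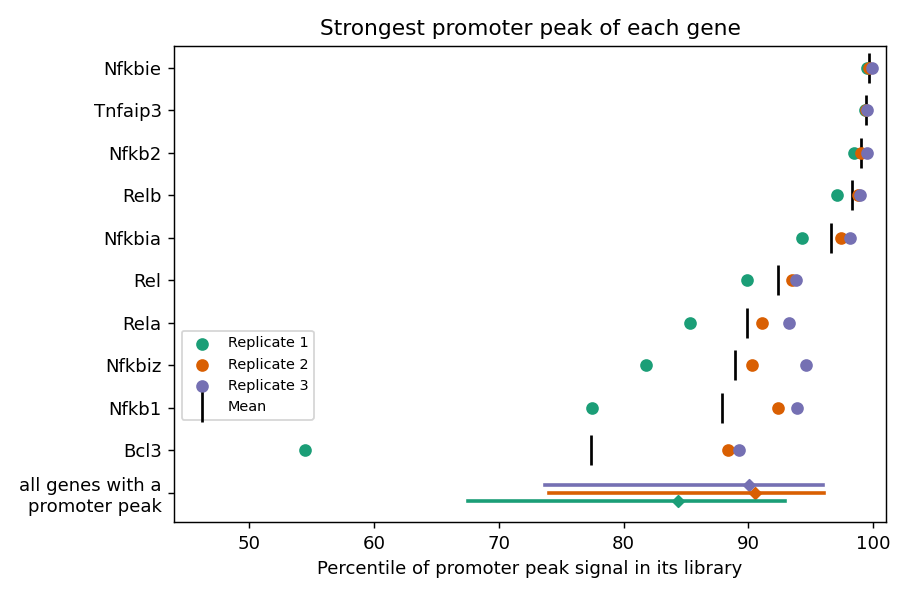
Percentile of the strongest promoter peak of each gene among all peaks of its library, with a point per replicate and a bar for the mean. The lowest row gives the median (diamond) and quartiles (line) over all genes with a promoter peak. Nfkbie, Tnfaip3, Nfkb2 and Relb lie above percentile 97 in every replicate, and Bcl3 lies at 54.5 in replicate 1.

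The plot of promoter percentiles shows that the points of replicate 1 lie left of the others for every gene, most of all for Bcl3 and Nfkb1. The row for all genes is shifted in the same direction, with a median of 84.3 in replicate 1, against 90.5 and 90.05 in replicates 2 and 3.

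The libraries held 40484, 84564 and 81854 peaks and 101990, 239483 and 222990 footprints in replicates 1, 2 and 3, and their read depth is not given. Joined over libraries the peaks formed 99408 regions, of which 35126 had a peak in all 3. The label was checked against marker genes. Promoters of 11 of 15 natural killer markers were open in all 3 libraries, with Il2rb, Prf1 and Gzmb strongest, and summed promoter signals over the list of 24.7, 33.9 and 66.5. Of 15 B cell markers, replicate 1 had 10 open, replicate 2 all 15 and replicate 3 had 13, with summed signals of 9.36, 62.3 and 34.2. The labels name no sort or gate. Of 15 T cell markers, replicate 1 had 5 open, replicate 2 had 13 and replicate 3 had 9. The natural killer counts were 11, 14 and 15. Of the T cell markers, Cd4 and Cd8a alone had no promoter peak in any library, while Cd28, Ccr7, Lat, Lef1 and Cd3d had one in all 3. Open in all 3 libraries were 5 T cell markers, 7 of 12 dendritic cell markers and 4 of 15 monocyte and macrophage markers. These were 33.3%, 58.3% and 26.7% of their lists, against 73.3% for natural killer markers and 66.7% for B cell markers. The share over all protein-coding genes was 52.5%. All 12 neutrophil markers were without a peak. B cells and dendritic cells also use NF-kB, and the part of other cells in the values of the 10 genes was not tested.

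Around the 10 genes lay 161 accessible regions, of which 59 had a peak in all 3 libraries, 49 in 2 and 53 in 1. No locus overlapped another. Of the 59, 19 lay at promoters of the gene itself, 8 in its introns, 1 in an exon, 9 at promoters of other genes, 7 upstream and 15 downstream. Without replicate 1 the count of regions found in every library was 107. Of the 99 regions with no peak in replicate 1, 5 overlapped an interval that the deposited cut-rate list of that library gives at a false discovery rate (FDR) of 0.05 or less. The corresponding counts were 9 of 22 for replicate 2 and 4 of 34 for replicate 3.

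The number of all-library regions per locus had a median of 6 over the 10 genes, against 2 over all genes (quartiles 0 and 4). Nfkb1 and Nfkbie had 9 each, Nfkb2 and Bcl3 had 7, Rela, Relb and Nfkbia had 6, Nfkbiz had 5, Rel had 3 and Tnfaip3 had 1. Replicate 1 decides this order. Without replicate 1, Nfkb1 had 19, Nfkbie 16, Tnfaip3 15, Nfkbia and Nfkbiz 10 each, Nfkb2 and Bcl3 9 each, Relb 8, Rela 6 and Rel 5, and the medians were 9.5 over the 10 genes and 4 over all genes. The loci differ in length from 43.2 kb for Nfkbia to 146.9 kb for Nfkb1, and these counts were not matched on length. Rel spans 34.1 kb, and beyond the region centred at 1079 bp its gene body had 1 peak, in replicate 3. Its start region, chr11:23770701-23771440, held 11, 17 and 18 footprints in replicates 1, 2 and 3, the most of any promoter region of the 10 genes. That region was also the widest of their promoter regions found in all libraries, and the counts were not adjusted for width.

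**Figure D2:**
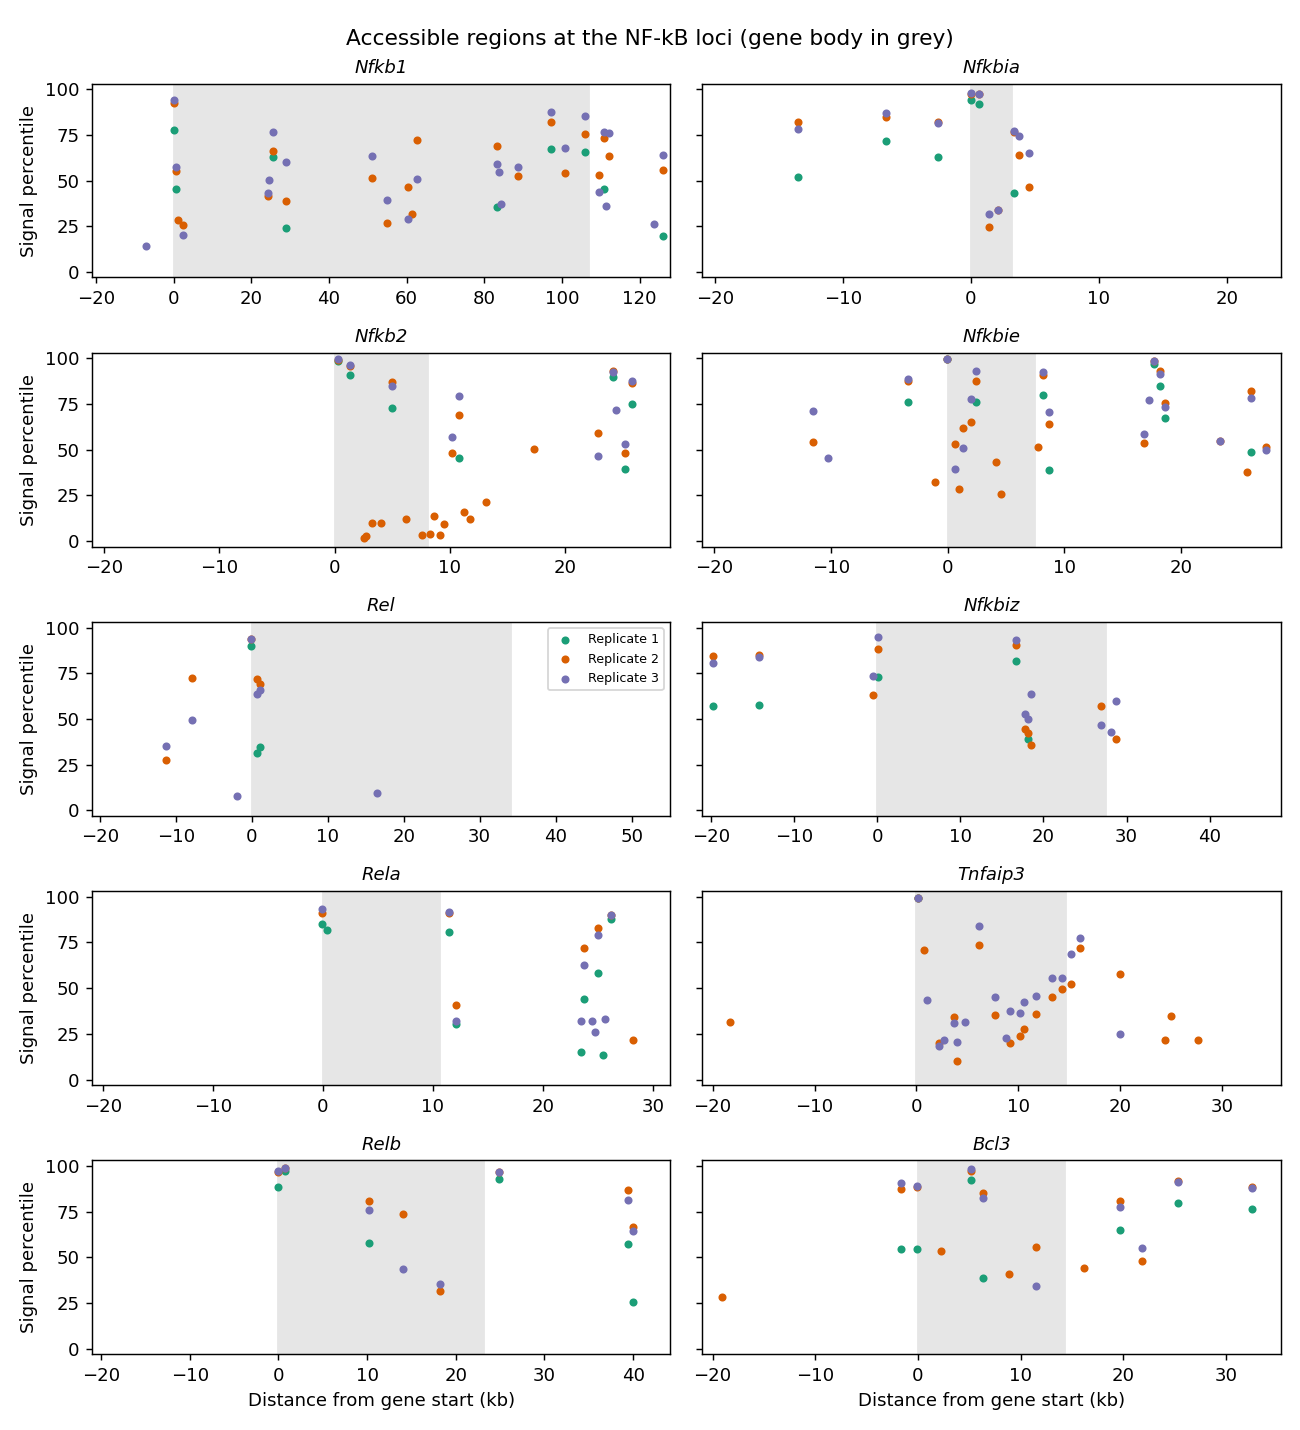
Accessible regions at each of the 10 loci by distance from the gene start in kb, with the percentile of the peak's signal in each replicate (a point per library with a peak) and the gene body in grey. Tnfaip3 has 1 region with a point for replicate 1, at its start, and Nfkb2 has a row of points for replicate 2 alone near the bottom.

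The maps of the loci show that, by the mean percentile over libraries, the strongest region of the locus lay at the gene's own promoter except in Bcl3. There it was an intronic region 5.15 kb from the start, chr7:19817481-19817780, with signals of 5.63, 14.7 and 18.1 in replicates 1, 2 and 3. It stood at percentiles 92.4, 97.3 and 98.1 and was above the Bcl3 promoter in each library. It held a kappa B match, which is printed here in capitals, in the direction of the gene, because the region outranks the promoter (chr7:19817595-19817674 (minus strand)).
Bcl3 intron: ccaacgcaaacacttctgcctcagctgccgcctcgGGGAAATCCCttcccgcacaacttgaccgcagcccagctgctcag
The match had 0, 3 and 3 of its 10 bases inside a footprint in replicates 1, 2 and 3. A further match lay upstream of Bcl3, in the region centred at position -1651, with signals of 1.20, 4.41 and 6.67, and none of its bases lay in a footprint. That upstream region, like the Bcl3 promoter, ranked lower in replicate 1 (percentile 54.8) than in replicates 2 and 3 (87.2 and 90.6). Other regions of the loci did so too, such as the one at an annotated start 6.32 kb into Bcl3, at 39.0, 85.1 and 82.5.

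Away from promoters, the other loci held regions of middle to high rank. Downstream of Rela, a region between genes at chr19:5648821-5649060 had signals of 2.93, 6.36 and 7.27 in replicates 1, 2 and 3, below the Rela promoter in each library, and held a kappa B match at position 11468. In Nfkb1, the longest of the 10 genes, 3 intronic regions were found in all libraries, at 25.6, 29.0 and 105.9 kb from the start. The last was the strongest of them, with signals of 1.62, 2.10 and 4.21, and was highest in replicate 3. Relb had 1 intronic region in all libraries, 10.2 kb from its start, with signals of 1.30, 2.87 and 2.35. Upstream of Nfkbia lay 3 regions, of which the one centred at -6614 bp, inside the gene Gm36634, was strongest in every library, at percentiles 71.4, 84.5 and 86.7. Nfkbie had 1 upstream region in all libraries, centred at -3422 bp at percentiles 75.8, 87.4 and 88.8.

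Loci in gene-rich neighbourhoods also hold other genes' promoters. In the Nfkbie locus the region at the start of Hsp90ab1, a heat shock chaperone, stood at percentiles 96.8, 98.4 and 98.5, below the Nfkbie promoter in each library. The start of Slc35b2, a sulfate donor transporter, lay 8.18 kb from that of Nfkbie and stood at 80.2, 90.8 and 92.4. In the Nfkb2 locus the Fbxl15 start region stood at 89.9, 93.3 and 92.8. Promoters of Sipa1, Clasrp and Cblc accounted for the other regions of this class in the Rela, Relb and Bcl3 loci.

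Tnfaip3 combined a very strong promoter with the greatest difference between libraries over its gene body. Its locus held 24 regions, of which 1, the promoter, had a peak in replicate 1, while 25 and 26 peaks lay there in replicates 2 and 3. The regions chained along the exons and introns. The strongest beyond the promoter, at 6116 bp (chr10:19009441-19009660), had signals of 1.93 and 3.81 in replicates 2 and 3. In a measure added after the values were seen, 0%, 45.0% and 61.9% of the 11.2 kb of Tnfaip3 outside its promoters lay in intervals at an FDR of 0.05 or less in replicates 1, 2 and 3. In replicates 2 and 3 these shares exceeded those of 99.6% and 99.8% of the 20507 genes with enough sequence to measure, whose medians were 0.382% and 0.302%, while in replicate 1 the median was 0%.

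Nfkbia, Nfkbie and Nfkb2 also had wide stretches of accessible gene body outside promoters. The share was 0%, 32.5% and 41.8% in Nfkbia (1.9 kb measured) and 5.86%, 35.3% and 25.2% in Nfkbie (6.9 kb) in replicates 1, 2 and 3. In Nfkb2 it was 5.07%, 48.0% and 8.12%, so replicate 2 stood apart there. Of the 15 regions of the Nfkb2 locus found in 1 library, all but the one at 24431 bp came from replicate 2, and they ran from percentile 1.59 to 50.3 of its peaks. Bcl3 had 8.46%, 14.5% and 13.3%, and Rela had 0% in all 3. Nfkb1, Rel, Relb and Nfkbiz lay between 0.945% and 5.53% in every library.

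**Figure D3:**
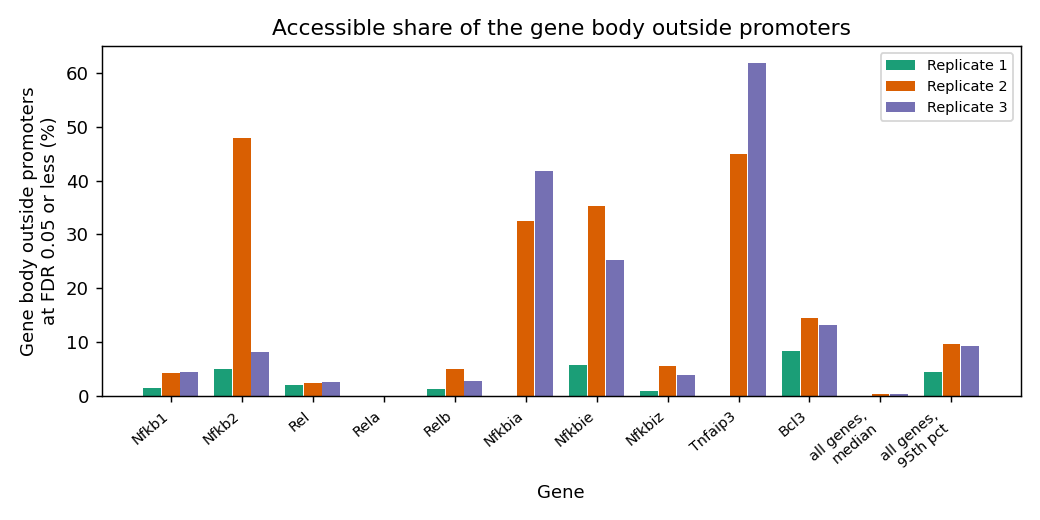
Share of each gene body, outside 500 bp around its annotated starts, that lies in intervals at an FDR of 0.05 or less, in percent and per replicate, with the median and the percentile 95 of all genes at the right. Tnfaip3 reaches 45.0% and 61.9% in replicates 2 and 3 and 0% in replicate 1.

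The bars of accessible gene body show Tnfaip3, Nfkbia, Nfkbie and Bcl3 above the percentile 95 of all genes in replicates 2 and 3. That percentile was 9.76% in replicate 2 and 9.37% in replicate 3, and the subunit gene Nfkb2 was above it in replicate 2 alone of these. In replicate 1 Bcl3 was the highest of the 10, at 8.46%. The shares were not matched on gene length. In Nfkb2 the share in replicate 3 was still above that of 93.8% of genes. Replicate 1 has the fewest peaks of the libraries, and the part of this in these differences was not tested.

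The kappa B matches were then counted in 150 bp around the middle of each region found in all libraries. Of the 19 regions at promoters of the 10 genes 10 held a match (52.6%), against 6.71% of all 15475 promoter regions. Of the 31 regions of the loci away from promoters 5 held a match (16.1%), against 4.63% of all such regions. Promoters of other genes in the loci had a match in 2 of 9 cases (22.2%). Over the 59 regions together the share was 28.8%, against 5.55% of all regions. Without replicate 1, over the 107 regions found in both other libraries, it was 17.8%, against 5.61% of all such regions. The median content of G and C in these windows was 67.3% at promoters of the 10 genes and 64.7% at all promoter regions, and 52.7% in each set away from promoters. The shares were not matched on base content, and regions of 1 locus share their neighbourhood.

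Other promoter elements were searched in the same 150 bp of the strongest promoter region of each gene, on both strands. The kappa B consensus was in 6 of the 10, Nfkb1, Nfkb2, Rel, Nfkbia, Nfkbie and Tnfaip3. The GC box GGGCGG was in 9, all but Nfkb2, and in 48.7% of all promoter regions. The ETS element CGGAAG was in Nfkbie alone (21.7% of all promoter regions) and the box CCAAT in Nfkb2 alone (23.7%). The CRE element TGACGTCA was in none of the 10 windows (2.76% of all promoter regions). Nor were the NRF1 element GCGCATGC (3.74%), the RUNX element TGTGGT (8.14%) and the AP-1 element TGANTCA (3.23%). The octamer ATTTGCAT (0.840%), the IRF element (1.44%) and the CTCF core (4.30%) were not in these windows either. Elements outside the windows were not counted, so an absence here is not an absence from the promoter. The Relb start region, which is not its strongest, holds both TGACGTCA and CCAAT. The Tnfaip3 promoter region holds TGACTCA, a match to the AP-1 element, outside its window. The overlap of matches between elements was not removed.

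Regions with a peak in all libraries held 32 kappa B matches in the 10 loci, of which 28 overlap no other and 4 form the 2 overlapping pairs of Nfkb2 and Rel. In replicates 1, 2 and 3, 12.5%, 37.5% and 31.2% of the 32 had at least 50% of their bases inside a footprint. Over all 4663 matches of such regions in the genome the shares were 11.3%, 25.3% and 23.0%. Of the 32, 11 were covered in this way in at least 2 libraries, 2 in all 3, and 19 in none. Of these 11, 8 lay at promoters of the genes and 3 away from promoters, and none of the 5 matches at promoters of other genes was covered. The overlapping pairs were counted as 2 matches each, and all 4 are among the 11 and among the 8. In replicate 1 the Rel pair made up 2 of the 4 covered matches, so these counts are not of separate stretches.

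**Figure D4:**
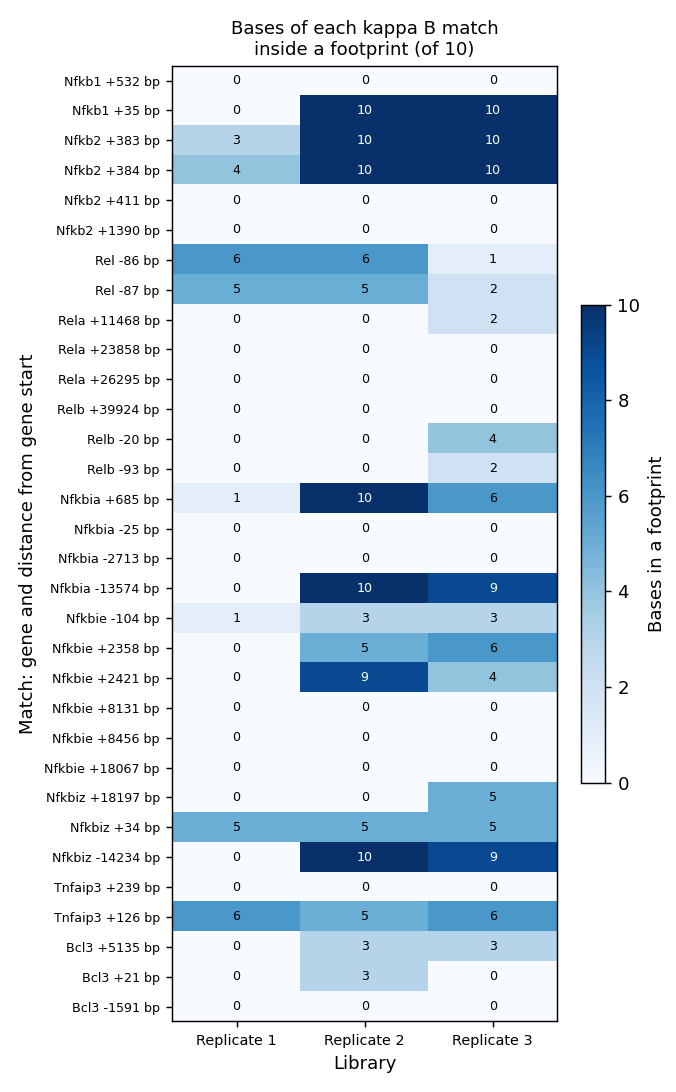
Number of the 10 bases of each kappa B match that lie inside a footprint, for the 32 matches in regions with a peak in all libraries, by gene and distance from its start (rows) and by replicate (columns). The matches of Nfkb1 at 35 bp, Nfkb2 at 383 bp, Nfkbia at -13574 bp and Nfkbiz at -14234 bp have 9 or 10 bases covered in replicates 2 and 3.

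The grid of covered bases shows that few matches were covered in replicate 1 and that most of the covered ones were so in both other replicates. In Nfkb1 the match at position 35, in the first exon, had 0, 10 and 10 bases covered in replicates 1, 2 and 3. In Nfkb2 the match at position 383 had 3, 10 and 10, and in Nfkbia the match at position 685 had 1, 10 and 6. The footprints of replicate 2 are shown in capitals over the first and the last of these, to show how they sit on the match.
Nfkb1 footprints: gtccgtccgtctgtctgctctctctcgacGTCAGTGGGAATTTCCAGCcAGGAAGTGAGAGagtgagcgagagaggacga
Nfkbia footprints: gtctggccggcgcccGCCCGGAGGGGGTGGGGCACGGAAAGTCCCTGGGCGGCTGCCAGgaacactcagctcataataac
The Nfkb1 footprint spans the whole GGGAATTTCC, and a second one lies directly after it. In Nfkbia, at chr12:55491922-55492001 (minus strand), a run of 44 covered bp spans the match GGAAAGTCCC.

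Some matches in strong promoters had no footprint on them in any library, while other letters nearby did. The match at position -25 of Nfkbia had 0 covered bases in all 3 libraries, in a region at percentiles 94.3, 97.4 and 98.1. The match at position 239 of Tnfaip3 had 0 as well, in the strongest region of its locus. The footprints of replicate 3 are shown in capitals around both.
Nfkbia start: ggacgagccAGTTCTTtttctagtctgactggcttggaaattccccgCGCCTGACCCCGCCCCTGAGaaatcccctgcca
Tnfaip3 start: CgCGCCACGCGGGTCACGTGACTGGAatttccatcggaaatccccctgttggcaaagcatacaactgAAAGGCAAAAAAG
In the Nfkbia window the footprint beside the match covers a GC-rich stretch that includes the letters CCGCCC, the GC box read on the other strand. In the Tnfaip3 window it covers letters that include CACGTG. In both windows a footprint covered these letters in all 3 libraries. The other match of the Tnfaip3 promoter, at position 126, had 6, 5 and 6 bases covered, and that of Nfkbiz at position 34 had 5, 5 and 5. These were the 2 matches covered by at least 50% in all 3 libraries. In Nfkbiz replicates 1 and 2 covered the GGGAA of the match and replicate 3 covered its TTTCC, so the libraries did not cover the same bases.

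Covered matches also lay far from the starts. A region upstream of Nfkbia, chr12:55506041-55506240, held a match at position -13574 with 0, 10 and 9 bases in footprints of replicates 1, 2 and 3, and its signals were 1.12, 3.02 and 2.64. A region upstream of Nfkbiz and inside the neighbouring gene Nxpe3, chr16:55853001-55853160, held a match at position -14234 with 0, 10 and 9. Its signals were 1.30, 3.78 and 3.80. Both are printed with the match in capitals, since they are the matches beyond 10 kb that footprints covered in 2 libraries. They lie at chr12:55506181-55506260 (minus strand) and chr16:55853093-55853172 (minus strand).
Nfkbia upstream: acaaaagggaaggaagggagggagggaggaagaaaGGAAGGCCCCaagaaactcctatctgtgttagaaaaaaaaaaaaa
Nfkbiz upstream: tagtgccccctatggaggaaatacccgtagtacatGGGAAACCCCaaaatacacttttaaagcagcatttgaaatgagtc
In an intron of Nfkbie, 2.44 kb from its start, a region with signals of 2.34, 4.61 and 8.76 held matches at positions 2358 and 2421, with 0, 5 and 6 and with 0, 9 and 4 bases covered.

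Footprints of any kind numbered 207, 468 and 480 over the 10 loci in replicates 1, 2 and 3. Divided by the kb of peak there, these were 14.7, 12.9 and 13.5, against 11.2, 13.6 and 13.3 over whole libraries. Footprints outside peaks were counted as well, so these values are not densities within peaks. By this measure replicate 1 was higher in the loci than over its whole library. The numbers of footprints in whole libraries differ as well, and their level was not compared between libraries.

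The ratio of replicate 2 to replicate 3 was examined because marker genes of other cells differed between these libraries. It was taken on the log2 scale and centred on the regions with a peak in all libraries. Of the 19 promoter regions of the 10 genes 16 were below 0, against 46.2% of all 15475 promoter regions. The 3 above 0 lay at annotated starts 83.3 kb into Nfkb1 (0.49) and 6.32 kb into Bcl3 (0.16), and at 639 bp in Rel (0.44). The 59 regions of the loci had a median of -0.11, and 21 of them were above 0. The region with the largest difference was the Nfkbiz start, at -1.06, with a signal of 4.87 in replicate 2, against 10.5 in replicate 3. Nfkb1 had the lowest median over the regions of a locus, -0.47 over 9 regions, with 1 region above 0.

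**Figure D5:**
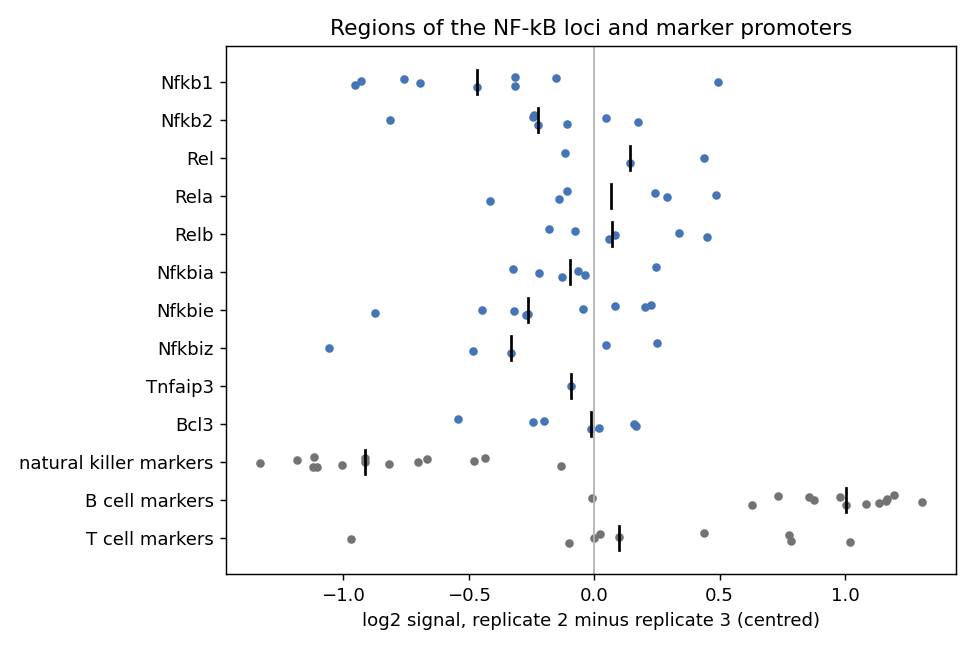
Centred log2 ratio of peak signal, replicate 2 minus replicate 3, for the regions of each locus with a peak in all libraries (blue) and for marker promoters (grey), with a bar at the median. The natural killer markers have a median of -0.91, the B cell markers 1.00 and the 59 regions of the loci -0.11.

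In the plot of ratios the regions of the 10 loci, with a median of -0.11, lie between the natural killer and B cell lists. All 35126 regions had a median of 0 by the centring, with quartiles of -0.26 and 0.19, so this place is not particular to the 10 loci. For markers the strongest promoter peak of each library was used. Promoters of natural killer markers had a median of -0.91, with 0 of 14 above 0, and those of B cell markers 1.00, with 12 of 13 above 0. T cell markers had 0.10, monocyte and macrophage markers -0.26, and dendritic cell markers 0.27. Markers of natural killer cells and of B cells thus moved in opposite directions between these libraries, and the part of this in the ratios of the 10 genes was not tested.

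The rest of the pathway was read from lists of 98 genes, of which 75 (76.5%) had a promoter peak in all 3 libraries and 7 had none in any, against the 52.5% of all genes that were open. The lists were chosen with earlier results of these data known. All 25 adaptors and ubiquitin ligases were open, led by Sharpin, a subunit of the linear ubiquitin ligase, at percentile 99.1 ± 0.337 (SD, n = 3). Bcl10, which links antigen receptors to the kinase, stood at 99.0 ± 0.580, and Ripk2, a kinase adaptor of intracellular pattern receptors, at 98.6 ± 1.35. All 8 kinases were open. Map3k14, the kinase that starts the alternative arm, stood at 99.5 ± 0.123, followed by Map3k7 at 92.1 ± 5.02 and Chuk at 92.0 ± 3.30.

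Of 16 other inhibitors and deubiquitinases 15 were open in all libraries. Tnip1, which binds the Tnfaip3 product, stood at 99.4 ± 0.282, Nfkbib, a further classical inhibitor, at 98.6 ± 0.513, and the deubiquitinase gene Cyld at 98.0 ± 1.46. Receptors were open in 10 of 19 cases (52.6%). Tnfrsf9, a costimulatory receptor, was highest at 95.9 ± 2.48, then Tnfrsf1b at 77.9 ± 10.6 and Tnfrsf13c, a receptor best known from B cells, at 76.9 ± 13.9. Tnfrsf4, Il1rl1 and Tlr7 had no promoter peak in any library. Of 30 textbook target genes 17 were open in all 3 (56.7%), with Sod2 at 98.1 ± 1.36, Bcl2l1 at 97.9 ± 0.287 and Gadd45b at 97.6 ± 2.26. No library had a promoter peak at Cxcl1, a chemokine gene, at Vcam1 or Sele, adhesion genes of the vessel wall, or at Nos2, which encodes inducible nitric oxide synthase.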

How the data were processed

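DNase-seq libraries of natural killer cells were read from the lists the authors deposited for each library. The signal of a deposited peak was ranked within its library, since its scale is not stated, and of the 2 peak lists the one with more lines was used. The cut-rate lists deposited by the authors give an FDR (q-value) up to 0.05. Footprint lists, as deposited, carry the same score of 0.01 in every row, so their intervals alone were used. Per the deposited descriptions the lists were made per library on mm10. No counting interval is printed, because the aligner, the callers and the read depth were not given in the sources used here.

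Peaks of the libraries were joined at 1 bp of overlap. Promoters were 500 bp on either side of any start in GENCODE vM21, loci the gene body with 20 kb on each side. Sequences came from RefSeq GRCm38.p6, and 11 motifs were searched on both strands in 150 bp. A kappa B match counted as covered with at least 50% of its bases in footprints. Steps were checked on simulated intervals and planted motifs. Python 3.11.15, pandas 2.3.3, NumPy 2.4.6, pysam 0.24.0 and matplotlib 3.10.9 were used.

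The genes and lists were chosen with earlier results of these data known. Named were the 10 genes, of each pathway list the genes with no promoter peak in any library and the 3 with the highest mean percentile, and genes whose start lies in a described locus. Alternatives were the stricter list, equal numbers of peaks, other promoter widths, flanks, overlaps and consensus forms, and leaving out each library. The alternative with the 5′ end of the gene record alone for percentiles, the counts at percentile 90, and the accessible share of gene bodies were added after the data were seen.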

Additional observations from a re-analysis of the deposited data

How the results depend on the processing

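Over the alternatives 45 of 61 recomputed summary values kept within their limits and 16 moved. Only the median log2 ratio of replicate 2 to replicate 3 has a sign among them, and it stayed negative. For single genes 162 values kept within their limits and 47 moved. The median ratio of a locus changed sign in Rela, from 0.068 to -0.14 with 10 kb flanks. It also did so in Nfkbiz, from -0.33 to 0.045 away from promoters, and in Bcl3, where it was near 0. The median promoter percentile of 94.5 was 90.5 when ranked among the regions with a peak in all libraries and 83.4 when summed promoter signal was ranked among promoters. The 59 regions became 28 in gene bodies alone and 95 with 50 kb flanks, and ranged from 60 to 107 with a library left out. The share of regions at promoters of other genes, 15.2%, was 23.7% with promoters of 1000 bp on each side and 7.32% with 10 kb flanks, and ranged from 9.35% to 16.7% with a library left out. The kappa B share of 28.8% was 44.1% over whole peaks (10.5% of all regions), 50.8% with a looser consensus (37.4% of all regions), 16.1% away from promoters and 36.4% with the stricter list, and ranged from 17.8% to 28.3% with a library left out. The mean share of matches covered by a footprint, 27.1%, was 42.7% at any overlap and 9.38% where the whole match had to lie inside. At any overlap the shares were 25%, 46.9% and 56.25% in replicates 1, 2 and 3, against 20.2%, 39.3% and 38.3% of all matches. With the whole match inside they were 0%, 18.75% and 9.38%, against 3.43%, 9.4% and 8.66%. The count of promoters at percentile 90 ranged from 5 to 9 with a library left out. The cause of these shifts was not tested, beyond the wider or narrower windows and the fewer libraries that define them. No paired analysis was possible because the study has 1 group. The depth of reads is not given, so a missing peak in replicate 1 does not show that a region is closed there.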
